A study of Mus musculus with 19 samples.

Results

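Mitochondrial ribosomal protein genes were followed through 19 arrays of mouse CD8 T cells, killer lymphocytes that recognise peptide on MHC class I. A gene was a member if the platform annotation tied a probe set to it alone and its symbol was Mrpl or Mrps followed by a number. Where several probe sets served a gene, the brightest by mean over the 19 arrays was used. The rule found 77 genes of 19938 with such a probe set, of which 48 are named for the large subunit (Mrpl) and 29 for the small subunit (Mrps). The symbols, and not the measured values, chose the members. Mrpl53 shared its probe set with other genes and was left out by the rule.

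The study asked how Stat5ca, a constantly active Stat5, which is a transcription factor downstream of cytokines, shapes effector CD8 T cells. Of the 19 arrays, 16 held cells of TCRP1A transgenic Rag-1-/- mice on a B10.D2 background, which carry T cells of a single receptor. The groups from these mice were naive cells (n = 4, arrays 33 to 36), cells activated for 72 h with their cognate antigen (control effectors, n = 4, arrays 1 to 4) and activated cells that were transduced with Stat5ca (n = 2, arrays 9 and 10, GFP+ per the labels). Control effectors recovered from spleen and lymph nodes of congenic hosts made up the transferred control group (n = 2, array 30 at day 18 and array 32 at day 120). Stat5ca cells recovered in the same way at day 20 made up the transferred Stat5ca group (n = 4, arrays 11 to 14). The last group held Stat5ca cells that lacked T-bet, the product of Tbx21 and a master regulator of effector CD8 T cells, after transfer (n = 3, arrays 39 and 40 at day 14 and array 41 at day 54). These T-betKO cells carried a C57BL/6 strain label beside the B10.D2 background, were stimulated through CD3 and CD28 by antibodies and not by antigen, and were labelled under another protocol than the rest. Strain, stimulus, day and protocol can therefore not be told apart from the loss of T-bet. No transduction was named for the control cells, so the vector and the selection on GFP cannot be told apart from Stat5ca. No label said that the arrays of a group stand for separate mice or cultures, and p-values measure only the spread between these arrays.

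Mitochondria have their own ribosome, whose RNA comes from mitochondrial DNA and whose proteins are all encoded in the nucleus, made in the cytosol and imported. This mitoribosome makes the few respiratory chain proteins that mitochondrial DNA encodes. Part of its proteins descend from bacterial ribosomal proteins and part are specific to mitochondria. Naive CD8 T cells are small and quiescent, and activated cells enlarge their mitochondria and their biosynthetic machinery as they divide.

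The upstream sequences of the members are shown first, to set out which letters the members have in common there. RefSeq promoter windows (GRCm38.p6, 250 bases before to 50 after the start of transcription) matched 68 of the 77 members, with 74 windows. Letters bound by nuclear respiratory factor 1 (Nrf1), a known regulator of genes for mitochondrial proteins, were searched as GCGCA, any base, then GCGC, on both strands, and 17.57% of member windows held them against 6.38% of 21262 windows of protein-coding genes. For GABP, also called nuclear respiratory factor 2, CCGGAAGT stood in 16.22% against 5.15%. For YY1, ANATGGCG stood in 14.86% against 4.52%. That share was 2.7% against 2.32% in the 250 bases before the start alone, so most of the YY1 letters lay after the start. The E-box CACGTG, which Myc can bind, stood in 9.46% of member windows against 7.84%, and the CRE TGACGTCA in 2.7% against 2.23%. Overlapping windows of Mrpl2 hold the same E-box and were each counted, so the E-box shares show no excess by gene. CCAAT stood in 39.19% against 38.19%, and TATAAA in 6.76% against 12.6%. These are matches of letters and no measure of binding. The upstream bases of 31 members overlapped another gene, and Mrpl46 and Mrps11 share theirs, since they point away from each other with starts 42 bases apart on chromosome 7.

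The 120 bases before the start are given for 4 members, read 5′ to 3′ on the strand of the gene, with the matched letters in capitals. Of these Mrpl9 was chosen for its promoter, and the others return in the results. Mrpl12 (chr11:120484517-120484636, + strand) and Mrpl9 (chr3:94443216-94443335, + strand) hold the Nrf1 letters, in Mrpl12 read on the other strand. Mrps22 (chr9:98601680-98601799, - strand) holds the GABP letters. Mrps30 (chr13:118387253-118387372, - strand) holds none of these, and the capitals ATTGG there are CCAAT read on the other strand.
Mrpl12: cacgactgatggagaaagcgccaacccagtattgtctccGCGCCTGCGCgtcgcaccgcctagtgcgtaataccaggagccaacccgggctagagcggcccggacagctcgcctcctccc
Mrpl9: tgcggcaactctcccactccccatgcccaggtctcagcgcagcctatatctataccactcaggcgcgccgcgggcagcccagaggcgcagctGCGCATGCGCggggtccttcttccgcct
Mrps22: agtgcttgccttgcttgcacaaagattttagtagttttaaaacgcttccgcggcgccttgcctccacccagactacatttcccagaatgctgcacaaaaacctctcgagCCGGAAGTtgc
Mrps30: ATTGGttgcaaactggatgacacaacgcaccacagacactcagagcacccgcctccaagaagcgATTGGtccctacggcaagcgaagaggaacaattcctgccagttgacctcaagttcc
Mrpl45, the member with the widest range of group means, holds the Nrf1 letters 3 times in its window. The matches before the start lie in the stretches chr11:97315586-97315615 and chr11:97315668-97315697, both on the + strand.
Mrpl45 upstream stretch: gaagcctcctGCGCAGGCGCagctggctct
Mrpl45 stretch near the start: tggtttcattGCGCACGCGCgaacccactg

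The values were the authors' deposited log2 signals, with array medians between 7.69 and 7.89. Levels are given on that scale, differences are in log2 units with standard errors from limma, and ± after a level is the SD over the arrays of a group. A gene was called changed at a Benjamini-Hochberg adjusted p under 0.05 over all 19938 genes. As a guide to background, 95% of 1190 olfactory and vomeronasal receptor genes had a mean level under 7.30. The labels were checked on the introduced and the deleted gene. Stat5a averaged 12.06 ± 0.09 in Stat5ca cells at 72 h against 10.56 ± 0.04 in controls, and 11.68 ± 0.12 against 10.25 ± 0.30 after transfer. Tbx21 averaged 8.24 ± 0.09 in T-betKO cells against 11.83 ± 0.10 in transferred Stat5ca cells, while Stat5a stood at 10.93 ± 0.11 there, lower than with T-bet.

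Other cells and both sexes were present in the RNA. The T-cell genes Cd3e and Cd8a averaged 12.36 or more in every group, but the mean of 18 myeloid genes ran from 7.11 and 7.21 in Stat5ca cells at 72 h to 12.27 and 12.51 in transferred controls. In between were control effectors (8.53 to 9.29), naive arrays 33 and 35 (8.18 and 9.21), naive arrays 34 and 36 (11.89 and 11.69), transferred Stat5ca cells (9.85 to 10.66) and T-betKO cells (12.30, 12.23 and 10.72). Csf1r, the receptor of macrophage growth factor, averaged 7.13 in Stat5ca cells at 72 h, under the background guide, and 13.21 in transferred controls. Control effectors averaged 8.90 over the 18 myeloid genes, above the guide, although the macrophage genes Adgre1 (7.10) and Mrc1 (6.22) lay under it. The mean of 8 B-cell genes was 7.14 to 7.95 over all arrays. By group it was under the guide only in control effectors (7.17) and highest in transferred controls and T-betKO cells (7.80 in both). Of these genes Ms4a1, Cd79a and Pax5 lay under the guide in every group. Cd4, a gene of helper T cells and some myeloid cells, averaged 8.31 in naive cells, 7.26 in control effectors, 8.28 in Stat5ca cells at 72 h, 9.51 in transferred controls, 8.27 in transferred Stat5ca cells and 8.99 in T-betKO cells. The mean of 10 T-cell identity genes was 11.83 and 11.67 in transferred controls, 11.90, 11.77 and 12.32 in T-betKO cells and 12.23 to 12.66 in all others. In such bulk RNA, fewer cells of a type and less RNA per cell cannot be told apart. Xist, a female gene, and the Y-linked genes Eif2s3y, Kdm5d and Uty divided the control effectors, since arrays 1 and 4 held Y-linked signal with Xist at 6.18 and 6.35 and arrays 2 and 3 held Xist at 12.92 and 12.84 with a Y-linked mean of 5.42 and 5.43. Arrays 10, 13, 30, 39 and 40 held clear signal of both (Xist 10.09 to 12.52, Y-linked mean 7.94 to 9.64), and naive array 35 held a lower Y-linked mean of 7.52 beside Xist at 12.65. After transfer, Stat5ca arrays 11, 12 and 14 had Y-linked means of 5.44 to 5.51. Both transferred controls (8.96 and 9.57) and all T-betKO arrays (7.94 to 9.79) held Y-linked signal, so sex was partly aligned with group there. The Y-linked level was added as a covariate after it was seen, and the counts with it are given beside each comparison where they move by more than 1.5 times.

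All 77 members had a mean level above the background guide. The levels ran from 7.76 for Mrps36 to 11.50 for Mrpl23, with a median of 9.67, and only Mrps36 (6.95) and Mrpl42 (7.22) had a group mean under the guide, both in naive cells. Averaged over the 77 members, naive arrays 33 to 36 stood at 9.25, 9.31, 9.52 and 9.20. Control effector arrays stood at 9.86, 9.95, 9.84 and 9.91, and Stat5ca arrays at 72 h at 9.80 and 9.84. Transferred control arrays were back at 9.22 and 9.16, while transferred Stat5ca arrays stood at 9.64, 9.75, 9.71 and 9.78. The T-betKO arrays lay between those groups, at 9.47, 9.35 and 9.32. The highest group mean was that of control effectors for 37 members, of Stat5ca cells at 72 h for 23 and of transferred Stat5ca cells for 14. Naive cells held the highest mean for 2 members and T-betKO cells for 1, Mrps21. The lowest group mean was that of transferred controls for 47 members, of naive cells for 19 and of T-betKO cells for 9.

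**Figure D1:**
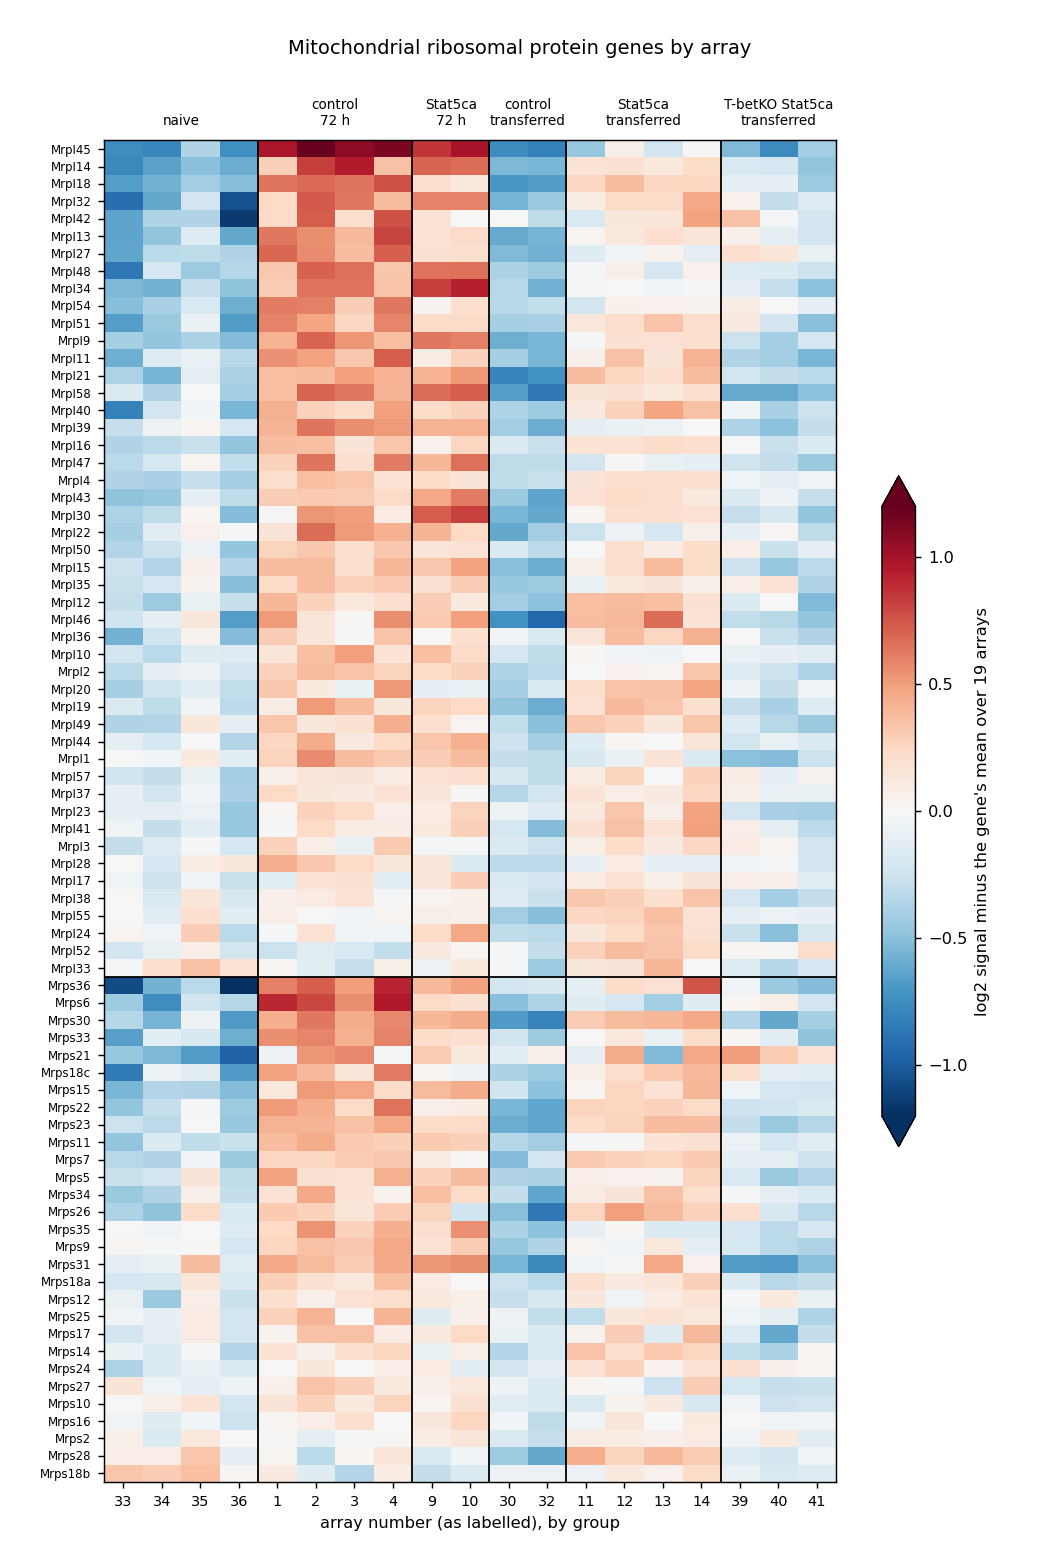
Each row is a member and each column an array, with Mrpl genes above the horizontal line and Mrps genes below it, each sorted by the change from naive to 72 h. Colour gives the log2 signal minus the gene's mean over 19 arrays, from blue (lower) to red (higher), and the 72 h arrays are red for most members while the naive and transferred control arrays are blue.

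**Figure D2:**
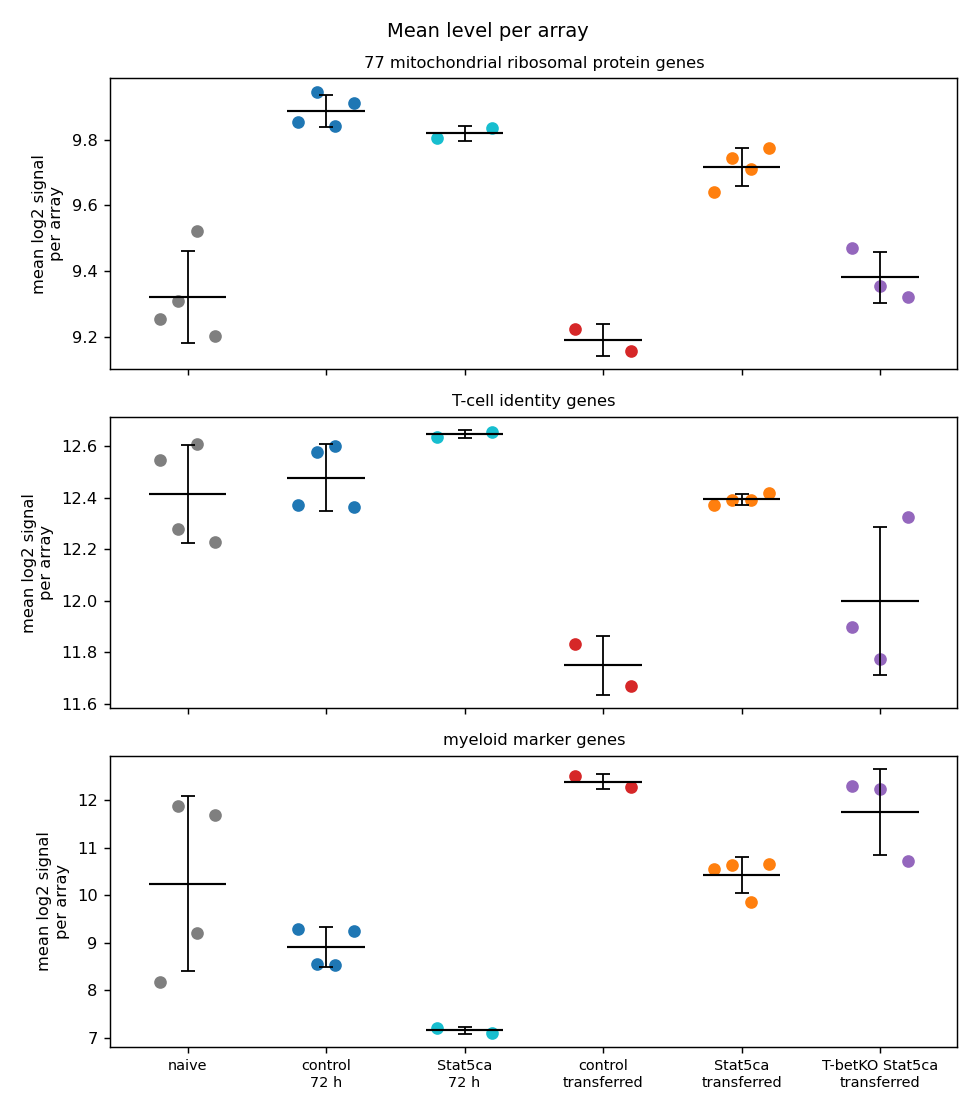
Points are arrays and bars the group mean with SD, for the mean log2 signal of the 77 members (top), of T-cell identity genes (middle) and of myeloid genes (bottom). The members stood at 9.84 to 9.95 in control effectors and at 9.16 and 9.22 in transferred controls, which also had the highest myeloid level.

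The range of group means differed among members. It was widest for Mrpl45 (1.95), Mrps36 (1.49) and Mrpl58 (1.46) and narrowest for Mrps2 (0.34), with a median of 0.76. Mrpl45 sits at the exit tunnel and ties the mitoribosome to the inner membrane. Its level was 8.11, 8.07, 8.49 and 8.11 in naive cells, 9.83, 10.31, 9.92 and 9.98 in control effectors and 9.70 and 9.84 in Stat5ca cells at 72 h. After transfer it was 8.09 and 8.03 in controls, 8.40, 8.92, 8.62 and 8.86 in Stat5ca cells and 8.32, 8.08 and 8.44 in T-betKO cells. Every 72 h array lay above every other array for Mrpl45. Mrps2, a protein of the small subunit with a bacterial counterpart, was 9.91 to 10.21 in naive cells, 9.98 to 10.10 in control effectors, 10.18 and 10.23 in Stat5ca cells at 72 h, 9.92 and 9.80 in transferred controls, 10.14 to 10.19 in transferred Stat5ca cells and 9.95 to 10.20 in T-betKO cells. Mrps16 and Mrps24, also of the small subunit, had the next narrowest ranges, with group means of 9.88 to 10.25 and 9.75 to 10.12.

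Activation raised most of the mitoribosome genes. Between naive cells and control effectors at 72 h, 65 of 77 members were higher and 1 was lower by limma, where 22.0% of all genes were higher and 24.9% lower. The median difference of the members was 0.52, against -0.09 over all genes. For 54 members every effector array lay above every naive array, which held for 18.4% of all genes. Of the genes named for the large subunit 42 of 48 rose and 0 fell, and of those named for the small subunit 23 of 29 rose and 1 fell. By role, all 4 measured proteins of the flexible stalk that recruits translation factors rose, as did 4 of 6 around the exit tunnel and 4 of 5 in the central protuberance, which contacts the small subunit. Mitochondria-specific proteins rose for 14 of 16 in the large and 8 of 9 in the small subunit, and those with bacterial counterparts for 26 of 29 and 12 of 15.

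The largest rise at 72 h was that of Mrpl45, by 1.82 ± 0.13 (3.52-fold, adjusted p 5.1e-08). Mrps36, named for the small subunit but now known as a part of the 2-oxoglutarate dehydrogenase complex, was 6.69, 7.19, 7.44 and 6.49 in naive cells and 8.37, 8.48, 8.27 and 8.68 in effectors. Its difference was 1.49 ± 0.20, or 1.15 when counted from the background guide, under which naive arrays 33, 34 and 36 lay. Mrps6, a small subunit protein, was 9.20, 8.88, 9.39 and 9.28 against 10.53, 10.43, 10.18 and 10.59, a rise of 1.25 ± 0.11. Mrpl14, which lies on the face of the large subunit toward the small one, was 8.80, 8.92, 9.07 and 8.98 against 9.86, 10.39, 10.52 and 9.91, a rise of 1.23 ± 0.12. For Mrpl14 effector arrays 2 and 3, with Xist, lay above arrays 1 and 4, with Y-linked signal, and all of these lay above every naive array. Arrays 2 and 3 also had lower myeloid levels (8.55 and 8.53 against 9.29 and 9.24). Their T-cell identity means were higher (12.58 and 12.60 against 12.37 and 12.36). Sex and cell content can therefore not be told apart for this split. Mrpl12, the stalk protein that binds elongation factors, was 10.01, 9.85, 10.20 and 10.02 in naive cells and 10.69, 10.57, 10.41 and 10.49 in effectors, and rose by 0.52 ± 0.09. Mrps30, which was placed in the large subunit by structure despite its name, was 8.00, 7.79, 8.28 and 7.66 against 8.78, 8.97, 8.79 and 8.92, and rose by 0.93 ± 0.11. Mrpl58, a peptidyl-tRNA hydrolase that became a ribosomal protein, rose by 0.76 ± 0.10.

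The 3 relatives of bacterial protein S18 parted in this comparison. Mrps18b was 10.87, 10.83, 10.89 and 10.55 in naive cells and 10.64, 10.38, 10.18 and 10.62 in effectors, and was the only member called lower, by 0.33 ± 0.11 (adjusted p 0.0207). The groups overlapped, and the call was lost without effector array 2 (adjusted p 0.0546), effector array 3 (0.0622) or naive array 33 (0.0519). With array weights the fall shrank to -0.14 (adjusted p 0.282), and without naive arrays 33 and 35 to -0.24 (0.156). The call was also lost with only the groups compared in the fit, median centring or RNA integrity number (0.0595 to 0.0667). Mrps18c, of the small subunit, rose by 0.84 ± 0.16 and Mrps18a, of the large subunit, by 0.35 ± 0.09. The call of Mrps18a was lost after quantile normalization (0.15, adjusted p 0.120) and without naive arrays 34 and 36 (0.27, adjusted p 0.0528). Mrps12, a protein of the decoding centre, rose by 0.34 ± 0.10, but without naive arrays 34 and 36 by 0.16 (adjusted p 0.147). Mrps24 was called higher by 0.26 ± 0.08, without naive array 33 by 0.20 (adjusted p 0.0507) and after quantile normalization by 0.06 (adjusted p 0.450). Mrps16 (0.20 ± 0.08, adjusted p 0.0575) and Mrps2 (-0.03 ± 0.07, adjusted p 0.742) were not called.

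In the same comparison 7 of 18 myeloid and 4 of 8 B-cell genes fell, with 0 risen, and Cd4 fell by 1.05 ± 0.22. The members stood higher at 72 h than in either pair of naive arrays: 53 of 77 were called higher and 1 lower without naive arrays 34 and 36, and 67 higher and 0 lower without naive arrays 33 and 35. Quantile normalization left 48 higher and 4 lower, with a median of 0.36.

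**Figure D3:**
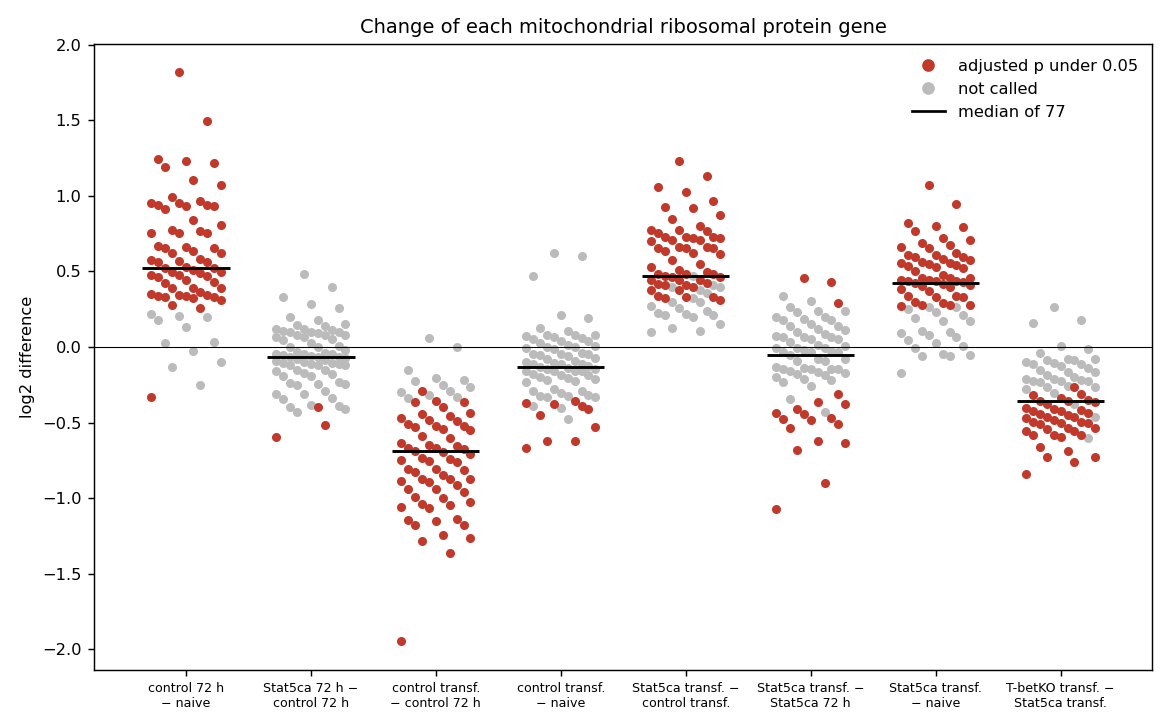
Each point is the log2 difference of a member between the groups named below it, red where the adjusted p was under 0.05 and grey otherwise, and the black bar is the median of 77. The medians were 0.52 from naive to 72 h, -0.69 from 72 h to transferred controls and 0.47 between transferred Stat5ca and control cells.

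Few mitoribosome genes differed with Stat5ca at 72 h, and the share called was near that of all genes. Between Stat5ca cells and controls 0 members were higher and 3 lower, where 2.37% of all genes were higher and 3.35% lower, and the median of members was -0.07 against 0.04. Mrps6 was 9.87 and 9.81 with Stat5ca and lower by 0.59 ± 0.14 (adjusted p 0.0207). Mrpl18, of the central protuberance, was 10.38 and 10.29 with Stat5ca against 10.82, 10.85, 10.81 and 10.93, lower by 0.52 ± 0.08 (adjusted p 0.00242). Mrpl27, a large subunit protein near the catalytic centre, was 10.11 and 10.12 against 10.62, 10.50, 10.30 and 10.65, lower by 0.40 ± 0.11 (adjusted p 0.0435). For all 3 genes both Stat5ca arrays lay below every control array. A dimmer probe set of Mrpl27 moved less, from 9.29 in controls to 9.12 with Stat5ca. The mean over the probe sets of Mrpl27 gave -0.29 (adjusted p 0.141). Myc, which drives growth and ribosome genes, was higher by 0.78 ± 0.16 in the same cells, a call that was lost without Stat5ca array 9 or 10 (adjusted p 0.0767 and 0.139). Of the markers 3 of 18 myeloid genes were lower, 1 of 8 B-cell genes was higher and Cd4 was higher by 1.02 ± 0.27.

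The 3 calls at 72 h rested on few arrays. Mrpl18 lost its call without Stat5ca array 10 (adjusted p 0.0738), and Mrps6 without control arrays 1 (0.0578) or 4 (0.0604) or Stat5ca arrays 9 (0.105) or 10 (0.226). Mrpl27 lost its call without control arrays 1, 2 or 4 (0.113, 0.0608 and 0.117), without either Stat5ca array (0.214 and 0.270) and under several other settings (0.0533 to 0.177). Quantile normalization gave 3 higher and 3 lower, the Y-linked covariate 2 and 7, and array weights 7 and 13. Without control array 3 the count was 2 higher and 6 lower, without control arrays 1 or 4 or Stat5ca array 9 it was 0 higher and 1 lower, and without Stat5ca array 10 none were called.

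Transferred controls had lower mitoribosome signals than control effectors at 72 h. Between control effectors at 72 h and transferred controls 64 of 77 members were lower and 0 higher, where 24.4% of all genes were lower and 13.1% higher. The median of members was -0.69, against -0.04 over all genes, and for 73 members both transferred arrays lay below every 72 h array, as for 31.9% of all genes. Mrpl45 fell by 1.95 ± 0.16 (3.85-fold lower). Mrpl18 was 9.47 and 9.51 after transfer and fell by 1.36 ± 0.08 (2.58-fold lower). Mrpl58 was 9.56 and 9.37 after transfer against 10.59, 10.93, 10.86 and 10.63, a fall by 1.28 ± 0.12. Mrps30 was 7.66 and 7.54 and fell by 1.26 ± 0.13. All 4 measured stalk proteins and all 5 of the central protuberance fell, but only 3 of the 6 around the exit tunnel.

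Mrpl12 fell by 0.71 ± 0.10, to 9.87 and 9.80. Of the S18 family Mrps18c fell by 0.81 ± 0.19 and Mrps18a by 0.52 ± 0.10, while Mrps18b was not called (0.00 ± 0.13). Mrps36 fell by 0.89 ± 0.24 and Mrps12 by 0.39 ± 0.12. Both calls were lost without array 30 (adjusted p 0.0528 for Mrps36 and 0.115 for Mrps12), and that of Mrps12 also without array 32 (0.0505). Mrps2 (-0.20 ± 0.08), Mrps16 (-0.25 ± 0.10) and Mrps24 (-0.22 ± 0.10) did not pass the test. In this comparison 16 of 18 myeloid and 3 of 8 B-cell genes rose, Cd4 rose by 2.25 ± 0.27 and 8 of 10 T-cell identity genes fell, with a median of -0.68. What the T-cell and B-cell markers contributed to the result was not tested. With a myeloid covariate 43 members were lower and 0 higher, with a median of -0.60. Of the members named here 3 lost their calls. Mrps36 (-0.88, adjusted p 0.109) and Mrps18a (-0.49, adjusted p 0.0513) changed little in size, while Mrps12 went from -0.39 to -0.09 (adjusted p 0.733).

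Compared with naive cells, transferred controls had mitoribosome genes at or slightly under the naive level. Of the 77 members 10 were lower and 0 higher, where 9.81% of all genes were lower and 7.94% higher, and the median was -0.13 for members and -0.12 for all genes. The share called was thus near that of all genes. T-cell identity genes were lower for 9 of 10, with a median of -0.72, a larger size than that of the members, while 5 of 18 myeloid genes were higher (median 2.08), 3 of 8 B-cell genes were higher and 2 lower, and Cd4 was called higher (9.51 against 8.31 in naive cells). The part of the T-cell and B-cell markers in the result was not tested. The largest falls were those of Mrps31 (-0.67 ± 0.15), Mrpl46 (-0.62 ± 0.20), Mrps28 (-0.62 ± 0.13) and Mrpl58 (-0.53 ± 0.12). Mrps31, specific to the mitochondrial small subunit, was 8.24 and 8.03 against 8.69, 8.71, 9.16 and 8.66 in naive cells. No member was called without the day 120 array 32, with the myeloid covariate or with only these groups in the fit, and 6 were called without array 30. The call of Mrpl46 was also lost without array 30 or without naive arrays 33, 34 or 35 (adjusted p 0.105, 0.0743, 0.0627 and 0.0928). The count was 20 without naive arrays 34 and 36, which had the higher myeloid levels, and 4 without naive arrays 33 and 35.

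Transferred cells with Stat5ca held higher levels of the mitoribosome genes than transferred controls. Of the 77 members 56 were higher and 0 lower by limma, where 16.9% of all genes were higher and 8.46% lower, and all 77 differences were positive. The median was 0.47 for members and 0.08 for all genes. By name 37 of 48 large and 19 of 29 small subunit genes rose. Mitochondria-specific proteins rose for 13 of 16 in the large and 7 of 9 in the small subunit, and 4 of 5 of the central protuberance rose, against 2 of 4 of the stalk and 3 of 6 of the exit tunnel.

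Mrpl46, of the central protuberance, was 8.20 and 7.99 in transferred controls and 9.30, 9.32, 9.61 and 9.09 with Stat5ca, higher by 1.23 ± 0.20 (2.35-fold, adjusted p 5.8e-04). Mrps30 was 7.66 and 7.54 against 8.65, 8.72, 8.74 and 8.81, higher by 1.13 ± 0.13. Mrpl21, a large subunit protein with a bacterial counterpart, was 7.76 and 7.83 against 8.93, 8.81, 8.75 and 8.93, higher by 1.06 ± 0.10. Mrps26, specific to the mitochondrial small subunit, was 8.44 and 8.09 against 9.20, 9.43, 9.32 and 9.22, higher by 1.03 ± 0.18. The groups did not overlap for any of these 4 genes. Mrpl12 was 10.66, 10.67, 10.65 and 10.47 with Stat5ca, higher by 0.78 ± 0.10, and Mrpl58 was higher by 0.92 ± 0.12. Mrps30 and Mrpl12 have unlike promoter stretches above, with CCAAT letters in the former and Nrf1 letters in the latter. CCAAT was about as common in member windows as in all (39.19% against 38.19%). The window of Mrps30 also holds YY1 letters after the start, outside the printed stretch.

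Of the S18 family Mrps18c was higher by 0.65 ± 0.19 and Mrps18a by 0.47 ± 0.10, while Mrps18b (0.15 ± 0.13, adjusted p 0.443) was not called. Mrpl45 was higher by 0.64 ± 0.16, Mrps24 by 0.33 ± 0.10 and Mrps2 by 0.31 ± 0.08. Mrps36 (0.47 ± 0.24), Mrps12 (0.33 ± 0.12, adjusted p 0.0540) and Mrps16 (0.22 ± 0.10) did not pass the test. With only 2 controls, leaving out an array ended some of these calls. Without array 32 adjusted p was 0.0769 for Mrpl45, 0.0521 for Mrps18a, 0.124 for Mrps18c, 0.152 for Mrps2 and 0.0551 for Mrps24. Without array 30 it was 0.0502 for Mrpl45, 0.0921 for Mrps18c and 0.192 for Mrps24, without Stat5ca array 14 it was 0.0509 for Mrps18c, and without Stat5ca array 12 it was 0.0557 for Mrps24. Mrpl46, Mrps30, Mrpl21, Mrps26, Mrpl12 and Mrpl58 kept their calls in each of these.

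The counts were 33 higher and 0 lower without the day 120 control, array 32, and 42 and 0 without the day 18 control, array 30. Markers of other cells moved as well, with 5 of 18 myeloid and 4 of 8 B-cell genes lower, Cd4 lower by 1.23 ± 0.27 and 8 of 10 T-cell identity genes higher (median 0.65) with Stat5ca. Of the B-cell genes Blnk, also made by myeloid cells, differed most, by -1.78 ± 0.29. The part of the B-cell and T-cell markers in the result was not tested. With a myeloid covariate 43 members were higher and 0 lower, with a median of 0.45, and Mrpl45 (adjusted p 0.0638) and Mrps2 (0.150) lost their calls. Myc was higher by 1.08 ± 0.16.

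The effect of Stat5ca differed between the times. In a test of that difference (the effect after transfer minus the effect at 72 h) 43 members were higher and 0 lower, where 12.3% of all genes were higher and 5.48% lower, and the median was 0.56 against 0.01. Mrpl18 had the largest difference, 1.48 ± 0.11 (adjusted p 5.7e-06). With Stat5ca it was lower at 72 h and higher after transfer, where it stood at 10.42, 10.54, 10.42 and 10.43 against 9.47 and 9.51. Mrps26 (1.27 ± 0.25), Mrps30 (1.23 ± 0.19) and Mrps22 (1.23 ± 0.17) followed. Mrps22, of the small subunit and with the GABP letters above, was 9.87, 9.80, 9.59 and 10.02 in control effectors, 9.43 and 9.46 with Stat5ca at 72 h, 8.81 and 8.74 in transferred controls and 9.64, 9.62, 9.64 and 9.60 in transferred Stat5ca cells. In the same test 4 of 10 T-cell identity genes were higher, with a median of 0.49, 1 of 18 myeloid genes was higher (median -0.74), 3 of 8 B-cell genes were lower and Cd4 was lower (-2.25 ± 0.38). With the myeloid covariate 46 members were higher and 0 lower, and the part of the other markers in the result was not tested. The count was 26 without array 32, 37 without array 30, and 30 and 28 without Stat5ca arrays 9 and 10. Among the named members the calls of Mrpl45 (0.87 ± 0.23) and Mrps18c (1.08 ± 0.27) were lost without array 32 (adjusted p 0.0601 and 0.0505), that of Mrpl45 also without array 9 (0.0689) and that of Mrps18c without array 10 (0.0617).

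**Figure D4:**
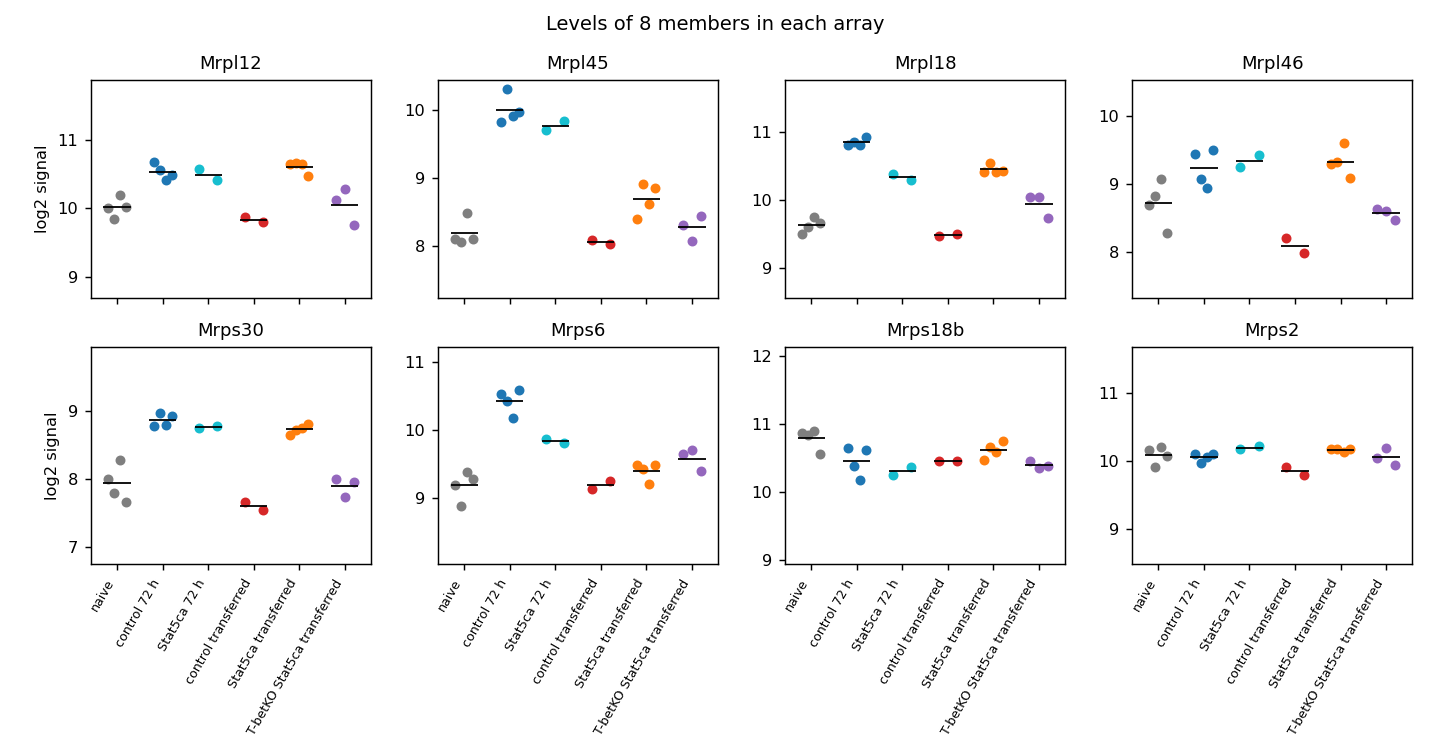
Points are the log2 signal of 8 members in each array and bars the group means, with the same span of log2 units in every panel. Mrpl12, Mrpl18, Mrpl46 and Mrps30 were high in transferred Stat5ca cells and low in transferred controls, Mrpl45 and Mrps6 were highest in control effectors at 72 h, and Mrps18b and Mrps2 moved least.

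Set against their own level at 72 h, Stat5ca cells lost part of the mitoribosome signal for some members and gained for few. After transfer 16 members were lower and 3 higher, where 12.7% of all genes were lower and 8.61% higher, and the median was -0.05 for members and -0.02 for all genes. Mrpl45 fell by 1.07 ± 0.16. Mrpl34, a small large-subunit protein, was 11.62 and 11.73 at 72 h and 10.81, 10.78, 10.76 and 10.77 after transfer, a fall by 0.90 ± 0.12. Mrpl48, of the central protuberance, fell by 0.68 ± 0.16, Mrpl47 by 0.63 ± 0.14 and Mrpl58 by 0.54 ± 0.12. A dimmer probe set of Mrpl47 moved little, from 7.656 in Stat5ca cells at 72 h to 7.565 after transfer. Mrps28 (0.46 ± 0.13), Mrpl20 (0.43 ± 0.14) and Mrps14 (0.29 ± 0.10, adjusted p 0.0484) were higher after transfer.

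Without Stat5ca array 10 the count fell to 4, with Mrpl48, Mrpl47 and Mrpl58 among those lost (adjusted p 0.0578, 0.0926 and 0.0616), and without array 9 it was 10. The 3 rises were each lost without either 72 h array, with adjusted p of 0.0708 to 0.362, that of Mrps28 also without transferred array 11 (0.0517), that of Mrpl20 without array 12, 13 or 14 (0.0650 to 0.0885) and that of Mrps14 without any one of the transferred arrays (0.0593 to 0.102). In this comparison 14 of 18 myeloid genes rose, and with their level as a covariate 4 members were lower and 2 higher. With that covariate Mrpl58 shrank to -0.24 (adjusted p 0.364) and Mrpl20 to 0.31 (0.379), and both lost their calls. Mrpl47 (-0.59, adjusted p 0.0774) and Mrps28 (0.57, adjusted p 0.0707) lost theirs as well. T-cell identity genes were lower for 4 of 10 and higher for 0, with a median of -0.32, larger in size than that of the members. Of 8 B-cell genes 2 were higher and 1 lower. The part of the T-cell and B-cell markers in the result was not tested. With the Y-linked covariate 14 were lower and 5 higher.

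Transferred Stat5ca cells also stood above naive cells, with 55 members higher and 0 lower, where 15.8% of all genes were higher and 12.7% lower. The median was 0.42 for members and -0.05 for all genes, and for 48 members all Stat5ca arrays lay above all naive arrays, as for 15.2% of all genes. Mrps36 was higher by 1.07 ± 0.20 (0.73 counted from background), Mrpl32, a large subunit protein that is cut after import, by 0.95 ± 0.15, Mrpl18 by 0.82 ± 0.07, Mrps30 by 0.80 ± 0.11 and Mrpl14 by 0.80 ± 0.12. Mrps2 (0.08 ± 0.07) and Mrps18b (-0.17 ± 0.11) were not called. Without naive arrays 34 and 36 the count was 38, and with the myeloid covariate 55.

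Stat5ca cells without T-bet had lower mitoribosome signals than Stat5ca cells with T-bet after transfer. Of the 77 members 41 were lower and 0 higher, where 13.8% of all genes were lower and 7.03% higher, and the median was -0.35 for members and -0.02 for all genes. For 51 members all 3 T-betKO arrays lay below all 4 Stat5ca arrays, which held for 19.9% of all genes. Mrps30 was 7.99, 7.73 and 7.95 in T-betKO cells and fell by 0.84 ± 0.12 (1.79-fold lower, adjusted p 2.3e-04). Mrpl46 was 8.64, 8.60 and 8.47 and fell by 0.76 ± 0.17. Mrpl58 was 9.63, 9.63 and 9.74 and fell by 0.73 ± 0.10. Mrps31 was 8.13, 8.12 and 8.30 against 8.76, 8.77, 9.26 and 8.85 and fell by 0.73 ± 0.13. Mrpl12 was 10.12, 10.29 and 9.76 and fell by 0.56 ± 0.11, and Mrps18a fell by 0.44 ± 0.09. All of these T-betKO values lay below those of every transferred Stat5ca array.

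T-cell identity genes were lower for 5 of 10 and higher for 1 in T-betKO cells, with a median of -0.45, larger in size than that of the members. B-cell genes were higher for 4 of 8 and lower for 0, with Blnk (1.26 ± 0.35) and Cd22 (1.02 ± 0.19) the largest, and 0 of 18 myeloid genes were called by limma, with a median of 1.41. The part of the T-cell and B-cell markers in the result was not tested. Mrpl45 was called lower by 0.42 ± 0.14 (adjusted p 0.0457) with overlapping groups, and the call was lost without Stat5ca arrays 12, 13 or 14 (adjusted p 0.130, 0.0633 and 0.120) or T-betKO arrays 39 or 40 (0.0912 and 0.222). Mrps36 (-0.60 ± 0.21, adjusted p 0.0533), Mrps18c (-0.26 ± 0.17), Mrps18b (-0.22 ± 0.11), Mrps12 (-0.09 ± 0.10), Mrps2 (-0.11 ± 0.08), Mrps16 (-0.08 ± 0.08) and Mrps24 (-0.08 ± 0.08) did not pass the test. Without array 40, which had the lowest RNA integrity number (6, against 8 or 9 in Stat5ca cells), 25 were lower, and with that number as a covariate 23. Array 41, recovered at day 54, had an integrity number of 8 and a myeloid level of 10.72, near the 10.66 of Stat5ca array 14. Its member mean of 9.32 was the lowest of the 3. Array 41 was recovered later than array 14 (day 20) and had Xist at 6.48 against 12.67. With 1 such array these factors cannot be told apart. With array 41 as the sole T-betKO array, assumed to vary like the other groups, 12 members were lower and the median was -0.39, and 4 of the members named here lost their calls. Mrpl46 (-0.86, adjusted p 0.0837), Mrps31 (-0.61, adjusted p 0.0991) and Mrps18a (-0.47, adjusted p 0.0705) stayed near their size, and Mrpl45 went from -0.42 to -0.26 (adjusted p 0.570). With a myeloid covariate 36 were lower and 0 higher.

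Genes that work beside the mitoribosome in mitochondrial protein synthesis were counted in the same comparisons, where 22.0% of all genes were higher at 72 h than in naive cells, 24.4% lower in transferred controls than at 72 h, 16.9% higher with Stat5ca after transfer and 13.8% lower in T-betKO cells. The other-symbol mitoribosome proteins Dap3, Chchd1, Gadd45gip1 and Ptcd3 were all higher at 72 h than in naive cells, all lower in transferred controls than at 72 h and all higher in transferred Stat5ca cells than in transferred controls. Without array 32 the last call was lost for all 4 (adjusted p 0.0900 for Dap3, 0.0562 for Chchd1, 0.0910 for Gadd45gip1 and 0.157 for Ptcd3), as was the fall of Ptcd3 (0.0714). The Stat5ca call of Ptcd3 was also lost without array 30, 12 or 14 (0.0818, 0.0520 and 0.0510). Dap3, a GTP-binding small subunit protein, was 9.67, 9.50, 9.92 and 9.39 in naive cells and 10.50, 10.71, 10.77 and 10.57 in effectors, a rise of 1.02 ± 0.10. It fell by 1.35 ± 0.13 in transferred controls and was higher by 0.54 ± 0.13 with Stat5ca after transfer. Of 10 translation factors 7 rose and 0 fell at 72 h, 10 fell in transferred controls and 7 rose with Stat5ca after transfer. Tufm, the elongation factor that delivers tRNA, rose by 1.03 ± 0.11 at 72 h, fell by 0.83 ± 0.14 in transferred controls and was higher by 0.57 ± 0.14 with Stat5ca, a call that was lost without array 30 or 32 (adjusted p 0.0531 and 0.0502). Mtrf1l, a release factor, changed by 0.74 ± 0.12, -1.05 ± 0.15 and 0.84 ± 0.15 in the same comparisons, and fell by 0.94 ± 0.13 in T-betKO cells, where 4 of 10 factors fell.

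Of 21 mitoribosome assembly factors 9 rose and 1 fell at 72 h, with a median of 0.08 where the members had 0.52, 14 fell in transferred controls, 12 rose with Stat5ca after transfer and 12 fell in T-betKO cells. Tfb1m, which methylates the small ribosomal RNA, rose by 1.02 ± 0.16 at 72 h and fell by 1.06 ± 0.17 in T-betKO cells, and Mrm1, which methylates the large ribosomal RNA, fell by 0.65 ± 0.11 at 72 h. Of 16 mitochondrial tRNA synthetases 3 rose and 1 fell at 72 h, a share of rises no larger than that over all genes, 10 fell and 1 rose in transferred controls, and 7 rose with Stat5ca after transfer. Ears2, which charges glutamate tRNA, fell by 0.93 ± 0.11 at 72 h. Of 10 genes for transcription and replication of mitochondrial DNA 3 rose and 3 fell at 72 h, and 5 rose and 0 fell with Stat5ca after transfer. Tfam, which packages mitochondrial DNA, was 8.09 and 8.10 in transferred controls and 8.64, 9.17, 9.08 and 9.13 with Stat5ca, higher by 0.91 ± 0.18, and fell by 1.02 ± 0.18 in T-betKO cells to 8.16, 7.55 and 8.23. With array 41 as the sole T-betKO array Tfam gave -0.78 with an adjusted p of 0.0887.

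Nuclear-encoded subunits of oxidative phosphorylation, the pathway that the mitoribosome serves, rose for 67 of 82 and fell for 3 at 72 h, fell for 66 and rose for 2 in transferred controls, and rose for 55 and fell for 1 with Stat5ca after transfer. In T-betKO cells 20 of 82 were lower and 3 higher. Of the genes in mitochondrial DNA, whose products the mitoribosome makes, COX2 and ND3 were measured here, and neither was called in the direction of those subunits. ND3 was 13.43, 13.32, 12.94 and 12.93 in naive cells, 12.93, 12.08, 11.81 and 13.07 in control effectors and 13.47 and 13.64 in transferred controls. It fell by 0.68 ± 0.23 at 72 h with overlapping groups, a call lost without effector array 2 or 3 or naive array 33 or 34 (adjusted p 0.0815, 0.0740, 0.0709 and 0.0541) or with the myeloid covariate (0.0534). It rose by 1.08 ± 0.28 in transferred controls, a call lost without array 32 (adjusted p 0.0611) or with that covariate (0.139). COX2 was not called in either (-0.09 ± 0.09 and 0.28 ± 0.11), and neither gene was called with Stat5ca after transfer or in T-betKO cells. Of 59 measured cytosolic ribosomal protein genes 15 rose and 6 fell at 72 h, 26 fell and 2 rose in transferred controls, 18 rose and 0 fell with Stat5ca after transfer, and 26 fell in T-betKO cells. Their median change was 0.07 at 72 h, against 0.52 for the mitochondrial members, and their group means lay between 12.03 and 12.34. Of 9 nuclear regulators of mitochondrial genes 3 rose and 4 fell at 72 h, and 2 rose and 4 fell in transferred controls. In transferred Stat5ca cells 5 were higher and 0 lower than in transferred controls, and in T-betKO cells 4 fell and 0 rose. Of the regulators whose letters were searched, Gabpa rose by 0.64 ± 0.09 and Yy1 by 0.66 ± 0.09 at 72 h. They fell by 0.86 ± 0.11 and 0.70 ± 0.11 in transferred controls. Nrf1 was measured too, but its changes are not given here. With Stat5ca after transfer Gabpa was higher by 0.49 ± 0.11, and in T-betKO cells it fell by 0.39 ± 0.09. These calls were lost without array 32 (adjusted p 0.0749) and without array 40 (0.0509). Myc did not pass the test at 72 h (0.16 ± 0.13, adjusted p 0.323) and fell by 0.70 ± 0.14 in T-betKO cells, and Pprc1, a coactivator of Nrf1, fell by 0.69 ± 0.11 at 72 h.

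The rise with activation and the Stat5ca difference after transfer share no arrays, and their gene lists can be set side by side. Of the 65 members higher at 72 h than in naive cells 49 were also higher in transferred Stat5ca cells than in transferred controls, which is 75.38% of the former and 87.5% of the 56 in the latter, and 5 members were in neither. Over all 77 members these calls took 72.73% (higher with Stat5ca) and 84.42% (higher at 72 h), so both shares lie near those of the members as a whole. Of the same 65 members 36 were lower in T-betKO cells, which is 55.38% of them and 87.8% of the 41 called lower there, near the 53.25% and 84.42% over all 77 members. Neither overlap is a result of its own. The sizes of the changes were only weakly related across the 77 genes (Pearson r 0.25, Spearman rho 0.30, across genes, which are not independent replicates). Mrpl45, Mrps36 and Mrps6 rose most with activation and gave differences of 0.64, 0.47 and 0.21 with Stat5ca after transfer, of which only the first passed the test. Mrps28 showed the reverse, with -0.13 ± 0.12 at 72 h and a higher level with Stat5ca after transfer (9.22, 9.05, 9.16 and 9.09 against 8.35 and 8.16).

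**Figure D5:**
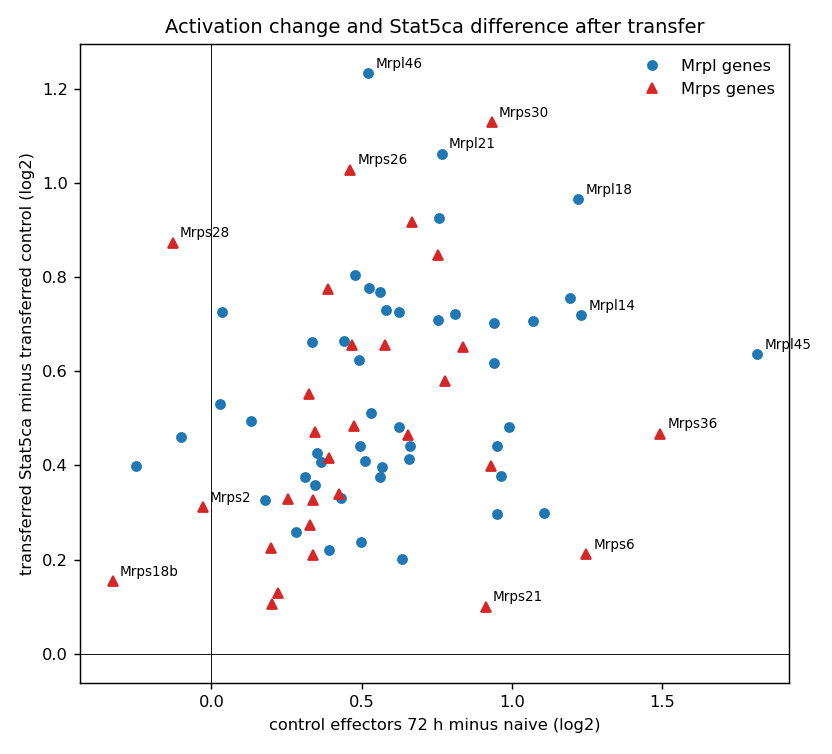
Each point is a member, circles for Mrpl and triangles for Mrps genes, with the log2 difference of control effectors at 72 h over naive cells on the x axis and of transferred Stat5ca over transferred control cells on the y axis. All 77 lie above 0 on the y axis and 72 lie above 0 on the x axis, and the member with the largest x value, Mrpl45, has a y value of 0.64.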

How the data were processed

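RNA of 19 CD8 T-cell samples was measured on an Affymetrix mouse gene array, 1 array a sample. The authors deposited log2 values for 35557 probe sets (3.131 to 14.936), made with Affymetrix Expression Console per the submitters' processing notes; the version and summarization method were not given in the sources used here. No further normalization was applied. The number of arrays limits the precision.

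The platform annotation tied 21789 probe sets to 1 gene, 1621 to several and 12147 to none, which left 19938 genes, 999 of them with several probe sets. Annotation of that age can hold old symbols; all 77 members matched RefSeq. The 8 members with several probe sets were represented by the brightest.

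Linear models and moderated statistics came from limma (3.58.1, under R 4.3.3). The 16 TCRP1A arrays were fitted together, and all 19 for the T-betKO comparison. P-values were adjusted by Benjamini-Hochberg over all genes of a comparison. The fit was tested on simulated data. Tables and figures were made with Python 3.11.15, pandas 2.3.3, numpy 2.4.6 and matplotlib 3.10.9. Motifs were searched in RefSeq promoter windows.

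The members and lists were chosen with earlier results of these data known. Named were, per comparison, the 4 largest rises and falls among called members and those called against the majority; the 3 widest and 3 narrowest ranges; the S18 family, Mrps30, Mrps36, Mrpl12 and Mrps12; members under background; called genes of each pathway list, and Myc. Some further members that these rules named in another comparison are given throughout, and Mrpl9 was chosen for its promoter. Alternatives were an intensity trend, only the groups compared or all arrays in the fit, quantile normalization, median centring, leaving out dim genes, the mean over probe sets, array weights, RNA integrity number or myeloid level as a covariate, and leaving out arrays. The Y-linked covariate and leaving out naive arrays 33 and 35 or T-betKO arrays 39 and 40 were chosen after seeing the data.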

Additional observations from a re-analysis of the deposited data

Results flagged for a closer look

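In 87 groups of 4 arrays examined over the named members, 5 had an array far from the others by Dixon's test, where chance gives about 1 in 20. Naive array 35 stood above the other naive arrays for Mrpl45 (8.49), Mrps18a (10.38) and Mrps31 (9.16), and it also had the highest member mean of the naive arrays, 9.52. Transferred Stat5ca array 14 was low for Mrpl12 (10.47), and array 12 was high for Mrpl18 (10.54).

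The Stat5ca effect differed between the time after transfer and 72 h for 43 members by limma's test of the difference, and each of these was higher after transfer. Among the named members the differences were 1.48 for Mrpl18, 1.27 for Mrps26, 1.23 for Mrps30, 1.23 for Mrps22, 1.08 for Mrps18c, 0.82 for Mrpl12 and 0.66 for Mrps18a. The transferred groups also differ in day of recovery, and that part was not tested.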

How the results depend on the processing

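No called value of a named gene changed direction under the alternatives run. Quantile normalization moved the median member difference to 0.36 (72 h over naive), -0.56 (transferred control over 72 h), 0.40 (transferred Stat5ca over control), 0.31 (transferred Stat5ca over naive) and 0.45 (difference of Stat5ca effects), and the calls to 6 (Stat5ca at 72 h) and 16 (transferred control over naive). With RNA integrity number the medians were -0.11 (Stat5ca at 72 h), -0.74 (transferred control over 72 h) and 0.63 (difference of effects), and 23 members were called for T-betKO. With the myeloid level the medians were -0.12 (Stat5ca at 72 h), -0.60 (transferred control over 72 h) and 0.019 (transferred Stat5ca over 72 h), a median that changed sign, and the calls were 0 (transferred control over naive) and 6 (transferred Stat5ca over 72 h). Array weights gave 20 calls for Stat5ca at 72 h and 30 for transferred Stat5ca over 72 h. Transferred control over naive had 0 calls with only those groups fitted, 20 without naive arrays 34 and 36 and 4 without 33 and 35. The Y-linked covariate gave 9 calls for Stat5ca at 72 h, and T-betKO had 12 without arrays 39 and 40. The causes were not tested. Leaving out each array gave 60 to 69 calls for 72 h over naive (median 0.48 to 0.62), 0 to 8 for Stat5ca at 72 h (-0.08 to -0.04), 54 to 65 for transferred control over 72 h (-0.74 to -0.67), 0 to 13 for transferred control over naive (-0.17 to -0.09), 33 to 55 for transferred Stat5ca over control (0.46 to 0.50), 4 to 16 for transferred Stat5ca over 72 h (-0.08 to -0.03), 48 to 59 for transferred Stat5ca over naive (0.37 to 0.48), 26 to 44 for the difference of effects (0.53 to 0.60) and 25 to 42 for T-betKO (-0.37 to -0.30). No paired analysis was possible because the labels do not say which arrays of different groups came from the same mouse or culture. Mrps36 and Mrpl42 in naive cells are limited by the array's background.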
